A study of Danio rerio with 6 samples.

Results

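Complement and coagulation plasma proteins are 2 sets of blood-borne proteins, most of them secreted by hepatocytes, that mark microbes for destruction and seal damaged vessels. They were followed here through a list of 59 gene symbols, 33 of complement and 26 of coagulation, matched by name to the gene tables. A row was found for 55 of them, 30 of complement and 25 of coagulation, among 36191 gene IDs in all. The symbols c1s, c4b, mbl2 and f13b matched no row and are not analysed here.

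In complement, recognition proteins (the C1q chains, mannose-binding lectin) start serine protease cascades that cleave C3, and the alternative pathway amplifies that cleavage through factors B and D. Cleaved C3 coats the target, and C5 cleavage starts assembly of the membrane attack complex from C6, C7, C8 and C9, while factors H and I hold the system back. In coagulation, tissue factor with factor VII starts a protease cascade that ends in thrombin, which turns fibrinogen into fibrin. Antithrombin, heparin cofactor and the protein C pathway restrain thrombin, and plasmin dissolves the clot. Liver supplies most of these proteins, whereas macrophages, endothelium and connective tissue supply a few, and zebrafish carry several C3 and factor H-like genes where mammals have fewer.

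RNA sequencing libraries labelled as liver came from 3-month-old wild-type fish of the AB strain, with 3 libraries labelled control and 3 labelled as treated with graphene oxide nanoparticles. Graphene oxide is an oxidized sheet-like carbon material, and the study's title names hepatic dysfunction and innate immunity. The labels do not say whether a replicate is 1 fish, a pool or a repeat of the same RNA, and any p-value below reflects how much these libraries varied, possibly for technical reasons alone. No dose or exposure time enters the values here. Total expected counts per library ran from 9739760 to 12998273.

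In both groups the third replicate differed from the other two, and most hepatocyte marker transcripts were low outside it. A list of 27 hepatocyte marker genes, none of them members, summed to 1485, 1482 and 14152 CPM (counts scaled to a common library total) in control replicates 1, 2 and 3 and to 766, 750.1 and 15158 CPM with graphene oxide. Of the 27, 22 were at least 2-fold higher in both replicate 3 libraries than in the highest of the other 4. The other 5 were rbp4, hpx, pah, cps1 and ahsg1. The defining hepatocyte gene fabp10a was at 1.02 to 1.58 CPM in replicates 1 and 2 and at 117 to 119 CPM in replicate 3. Exocrine pancreas markers were at 5.48 to 7.8 CPM in replicates 1 and 2 and at 2747 to 2897 CPM in replicate 3. Intestine markers were at 34.6 to 86.8 CPM in replicates 1 and 2 and at 995 to 1027 CPM in replicate 3. All 11 pancreas and all 8 intestine markers were at least 2-fold higher in both replicate 3 libraries than in the other 4. A list of 8 skeletal muscle genes took 4.81% to 7.36% of a library, whereas the 27 hepatocyte markers took 0.0750% to 1.52%. In replicate 3 the muscle genes summed to 48082 CPM in control and 49182 CPM with graphene oxide, above the hepatocyte markers there too. Every result on the members is therefore given for the replicate 3 pair and for replicates 1 and 2 as well as over all 6 libraries. In bulk RNA, fewer hepatocytes and less RNA per hepatocyte cannot be told apart. A list of 6 epidermis markers also took 1.15% to 1.87% of each library, replicate 3 included.

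Each member was placed by where it is known to be made, chiefly from human and mouse. Of the 55 members 39 were placed as made mainly in liver, 6 as made in liver and elsewhere (c1r, c7a, c7b, cfd, masp1 and pros1) and 10 as made outside liver (c1qa, c1qb, c1qc, cfp, f3a, f3b, f8, f13a1b, vwf and tfpia). In the RefSeq gene table of the GRCz12tu assembly, used for names and gene order only, many members are neighbours. The genes f7, f7i and f10 follow each other, as do c8a and c8b, c7b and c6, c1qb, c1qc and c1qa, c3b.2 and c3b.1, and the run cfhl4, cfh, cfhl1, cfhl2 and cfhl3. That table names the gene ID of c6 as c6.2. For 23 members some count was fractional, as an estimate that divides reads between similar sequences gives, so values of the C3, factor H-like and other paralogs are uncertain.

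Below, level means CPM scaled by TMM (trimmed mean of M-values) and values are listed in the order of replicates 1, 2 and 3. A mean level of at least 1 CPM was reached by 48 members. The other 7 were c1qa, c1qb, c1qc, c1r, cfhl1, cfhl3 and f9a. The recognition chains c1qa, c1qb and c1qc, which macrophages make, had at most 10 counts in any library. The protease gene c1r had 1 count over all 6 libraries. A count of 0 allows up to 3 counts, or 0.231 to 0.308 CPM in these libraries. Classical recognition was thus near the detection floor in these libraries. Of 8 macrophage markers, cd74a was as low, at 0.0786 to 1.02 CPM, and csf1ra was the highest in 5 of 6 libraries, with levels of 4.66 to 25.8 CPM.

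**Figure D1:**
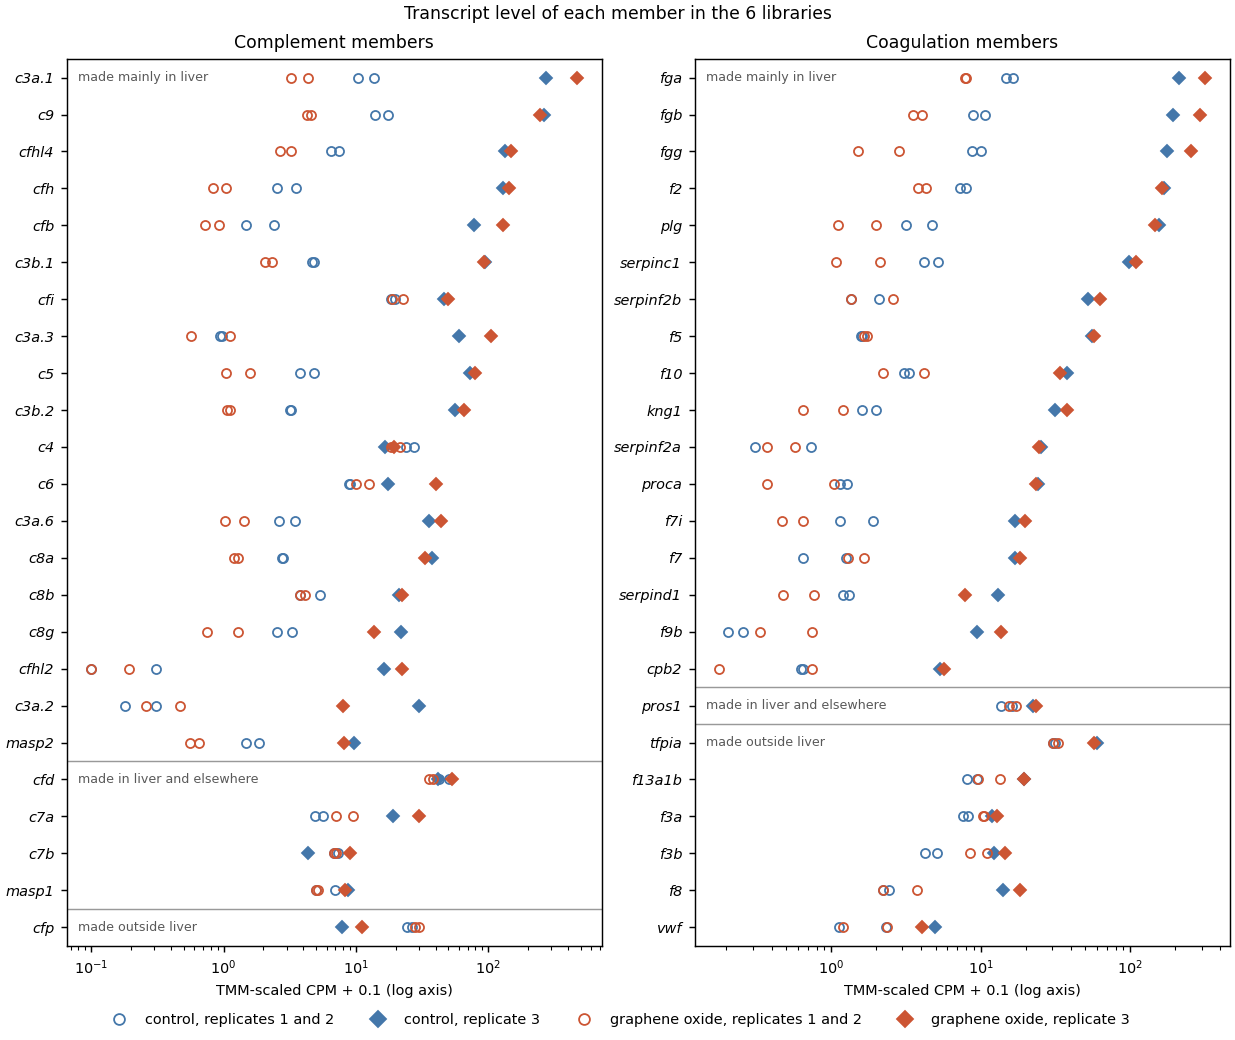
Level of the 48 members with a mean of at least 1 CPM, as TMM-scaled CPM + 0.1 on a log axis, 1 row per gene, with complement on the left and coagulation on the right. Open circles are replicates 1 and 2, filled diamonds replicate 3, blue control and red graphene oxide; diamonds stand far to the right of circles for most members made mainly in liver, but not for c4 and c6.

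Complement component C3 is the protein on which all activation routes converge. The most abundant of its listed genes by TPM (a level per transcript length) was c3a.1. Its level was 13.6, 10.3 and 272 CPM in control and 4.23, 3.14 and 471 CPM with graphene oxide. The replicate 3 libraries were far above the other 4, and among replicates 1 and 2 both graphene oxide libraries lay below both controls. The paralog c3b.1 was at 4.53, 4.71 and 95 CPM in control and 2.21, 1.94 and 92.2 CPM with graphene oxide, and c3b.2 at 3.07, 3.12 and 55.7 CPM in control and 1.01, 0.965 and 65.2 CPM with graphene oxide. The paralog c3a.6 was at 3.38, 2.53 and 35.5 CPM in control and 0.92, 1.34 and 44 CPM with graphene oxide. For these 3 paralogs too, both graphene oxide libraries of replicates 1 and 2 lay below both controls, while in replicate 3 the ratio of graphene oxide to control was 0.971 to 1.24. In contrast c3a.3 was at 0.844, 0.869 and 59.9 CPM in control and 1.01, 0.471 and 104 CPM with graphene oxide, with overlapping groups in replicates 1 and 2, and c3a.2 had at most 4 counts in any of those 4 libraries.

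The fourth component, C4, which carries the classical and lectin routes to C3, did not follow this division. The level of c4 was 27.3, 23.6 and 16.5 CPM in control and 21.2, 18.5 and 19.2 CPM with graphene oxide. Neither replicate 3 library exceeded the highest of its own group, and control replicate 3 was the lowest library of all. The lectin pathway protease gene masp2, whose product cleaves C4, was at 1.37, 1.74 and 9.49 CPM in control and 0.46, 0.55 and 8.03 CPM with graphene oxide. Its relative masp1 was at 6.86, 4.9 and 8.64 CPM in control and 4.88, 5.03 and 8.21 CPM with graphene oxide, so that masp2 differed widely between replicate 3 and the rest and masp1 little.

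Among terminal components, the pore-forming C9 had the highest TPM in replicate 3, at 159 in control and 149.7 with graphene oxide. The level of c9 was 13.7, 17.2 and 265 CPM in control and 4.14, 4.48 and 244 CPM with graphene oxide. C5, whose cleavage starts the attack complex, had levels of 3.69, 4.74 and 72.8 CPM in control and 1.47, 0.943 and 78.8 CPM with graphene oxide. For both genes replicate 3 was highest in either group, and graphene oxide lay below control in replicates 1 and 2. The C8 subunits divided although c8a and c8b are neighbours. The gene c8a was at 2.64, 2.69 and 37.4 CPM in control and 1.1, 1.18 and 33.4 CPM with graphene oxide. The gene c8g was at 2.43, 3.16 and 21.9 CPM in control and 0.644, 1.18 and 13.7 CPM with graphene oxide. The gene c8b was at 3.69, 5.22 and 20.9 CPM in control and 4.05, 3.69 and 22.1 CPM with graphene oxide, where the groups overlapped in replicates 1 and 2. C6 and C7, which bind C5b first, were less concentrated in replicate 3. The level of c6 was 8.76, 8.88 and 17.3 CPM in control and 12.5, 9.87 and 40 CPM with graphene oxide, highest in graphene oxide replicate 3. The level of c7a was 5.49, 4.82 and 18.9 CPM in control and 6.99, 9.43 and 29.9 CPM with graphene oxide, where graphene oxide exceeded control in each same-numbered pair. The level of c7b was 7.18, 6.72 and 4.24 CPM in control and 6.99, 6.76 and 8.95 CPM with graphene oxide, lowest in control replicate 3.

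In the alternative pathway, factor B is the protease of the C3 convertase, factor D activates it and properdin stabilizes it. The level of cfb was 1.37, 2.29 and 77.7 CPM in control and 0.828, 0.628 and 129 CPM with graphene oxide. The level of cfd was 42.3, 50 and 41.3 CPM in control and 38.4, 35.6 and 53.3 CPM with graphene oxide, the highest being in graphene oxide replicate 3. The level of cfp, the properdin gene, was 26.5, 24 and 7.71 CPM in control and 27.8, 30 and 11.1 CPM with graphene oxide. Properdin transcripts, in mammals made by leukocytes, were thus lower in replicate 3 than in any other library, the opposite of factor B. Neutrophil markers summed, without TMM scaling, to 64.8, 67.4 and 71.6 CPM in control and 63.9, 67.1 and 111.7 CPM with graphene oxide. Among them lyz was lowest in control replicate 3. Macrophage markers summed to 58.8 and 78.9 CPM in replicate 3 and to 20.7 to 28.7 CPM in the other libraries. The part of these cells in the cfp level was not tested. The regulator genes cfh and cfhl4 were at 2.43, 3.4 and 129 CPM in control and 0.736, 0.943 and 143 CPM with graphene oxide, and at 7.28, 6.4 and 134 CPM in control and 2.58, 3.14 and 148 CPM with graphene oxide, respectively. Factor I, which cleaves C3b with factor H as cofactor, differed less, with cfi at 19.7, 18.3 and 46.4 CPM in control and 22.5, 18.8 and 49.2 CPM with graphene oxide. The factor H-like gene cfhl2 had at most 2 counts outside replicate 3 and was at 16.3 and 22.3 CPM there, while cfhl1 and cfhl3 had at most 41.0 and 7 counts in any library.

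Fibrinogen chain genes had the highest TPM of the coagulation members in replicate 3. The level of fga was 16.4, 14.8 and 211 CPM in control and 7.82, 7.93 and 317 CPM with graphene oxide. The level of fgb was 8.76, 10.6 and 192 CPM in control and 3.4, 3.93 and 293 CPM with graphene oxide. The level of fgg was 10, 8.62 and 176 CPM in control and 2.76, 1.41 and 254 CPM with graphene oxide. All 3 chains were highest in graphene oxide replicate 3, next highest in control replicate 3, and lower with graphene oxide than in control within replicates 1 and 2. Per transcript length, the 3 chains together held 412 and 627 TPM in control and graphene oxide replicate 3, against 21.6 to 22.4 TPM in control and 9.09 to 9.90 TPM in graphene oxide replicates 1 and 2.

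Prothrombin is the precursor of thrombin. The level of f2 was 7.92, 7.19 and 168 CPM in control and 4.23, 3.69 and 163 CPM with graphene oxide. Of the other vitamin K-dependent factors, f10 was at 2.96, 3.24 and 37.6 CPM in control and 2.12, 4.09 and 34 CPM with graphene oxide. The initiating protease gene f7 was at 1.16, 0.553 and 16.8 CPM in control and 1.2, 1.57 and 18.2 CPM with graphene oxide. The gene f7i, known in zebrafish as an inhibitory form of factor VII, was at 1.06, 1.82 and 16.9 CPM in control and 0.368, 0.55 and 19.7 CPM with graphene oxide. All 4 were highest in replicate 3, whereas within replicates 1 and 2 graphene oxide lay below control for f2 and f7i and overlapped with it for f10 and lay above it for f7, a gene with 7 to 20 counts there. Protein C, the anticoagulant protease, was given by proca at 1.06, 1.19 and 24.1 CPM in control and 0.276, 0.943 and 23.2 CPM with graphene oxide. The gene f9b had at most 7 counts outside replicate 3 and f9a at most 6 counts in any library.

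The coagulation members made outside liver differed less between replicates than most liver-made ones. The cofactor gene f5 was at 1.48, 1.5 and 55.7 CPM in control and 1.56, 1.65 and 57.2 CPM with graphene oxide, and factor V is by contrast made mainly in liver. The cofactor gene f8, made by endothelium in mammals, was at 2.32, 2.13 and 14.1 CPM in control and 3.66, 2.12 and 18.3 CPM with graphene oxide. The level of vwf, which carries factor VIII and binds platelets, was 2.22, 1.03 and 4.83 CPM in control and 1.1, 2.28 and 3.92 CPM with graphene oxide. Tissue factor, the trigger of clotting, had 2 genes. The level of f3a was 8.13, 7.51 and 11.9 CPM in control and 10.2, 10.4 and 12.8 CPM with graphene oxide. The level of f3b was 4.12, 4.98 and 12.2 CPM in control and 10.9, 8.33 and 14.4 CPM with graphene oxide. Both graphene oxide libraries of replicates 1 and 2 were above both controls for f3a and f3b. The gene f13a1b, for the fibrin-crosslinking factor XIII A chain, was at 9.29, 7.98 and 19.3 CPM in control and 9.57, 13.3 and 19.5 CPM with graphene oxide.

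Inhibitor and clot-dissolving genes are made in liver or in vessels. Antithrombin, given by serpinc1, was at 5.08, 4.07 and 98 CPM in control and 2.04, 0.987 and 109.8 CPM with graphene oxide. Tissue factor pathway inhibitor, given by tfpia and made by endothelium in mammals, was at 31.1, 30.2 and 59.6 CPM in control and 32.9, 30.2 and 57 CPM with graphene oxide. Plasminogen, given by plg, was at 3.06, 4.66 and 156 CPM in control and 1.01, 1.89 and 146 CPM with graphene oxide. Antithrombin and plasminogen transcripts were thus concentrated in replicate 3 and tfpia differed less. The protein C cofactor gene pros1 was at 16.2, 13.7 and 22.4 CPM in control and 17.1, 15.4 and 23.4 CPM with graphene oxide. Its levels thus lay within a 2-fold range. The plasmin inhibitor gene serpinf2b was at 1.27, 1.98 and 52.3 CPM in control and 2.48, 1.26 and 62.6 CPM with graphene oxide, and its paralog serpinf2a at 0.211, 0.632 and 25.2 CPM in control and 0.276, 0.471 and 24.5 CPM with graphene oxide. Heparin cofactor II, given by serpind1, was at 1.1, 1.21 and 13 CPM in control and 0.671, 0.379 and 7.79 CPM with graphene oxide. These 3 inhibitor genes were again highest in replicate 3. The kininogen gene kng1 was at 1.9, 1.5 and 31.2 CPM in control and 0.552, 1.1 and 37.8 CPM with graphene oxide. The fibrinolysis inhibitor gene cpb2 had at most 7 counts outside replicate 3 and was at 5.25 and 5.57 CPM there.

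Taken by source, 35 of the 39 members made mainly in liver were at least 2-fold higher in both replicate 3 libraries than in the highest of the other 4. The exceptions were c4, c6, cfhl3 and f9a. The same held for 1 of the 6 members made in liver and elsewhere (c7a) and for 1 of the 10 made outside liver (f8), and for 8.89% of the 25544 gene IDs with any count. The properdin gene cfp was the only member at or below 0.5-fold of the lowest other library in both replicate 3 libraries, a pattern seen in 1.51% of gene IDs. With replicate 3 divided by the mean of replicates 1 and 2, the fold over the 39 members made mainly in liver had medians of 18.8 (control) and 39.0 (graphene oxide). Over the 10 members made outside liver these medians were 2.40 and 1.66. Members with few counts are included, such as c1qb with at most 8 in any library and cfhl2 with at most 2 outside replicate 3. No test was made of replicate 3 against the others, since it has 1 library in each group.

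Sums here are CPM without TMM scaling, whereas single genes are given as levels. The 39 members made mainly in liver summed to 179, 179 and 2755 CPM in control. With graphene oxide they summed to 116, 106 and 3380 CPM. Relative to the hepatocyte marker total of the same library, these sums were 12.1%, 12.1% and 19.5% in control and 15.1%, 14.1% and 22.3% with graphene oxide. The share was higher with graphene oxide than in control in each same-numbered pair, although the sum itself was lower in pairs 1 and 2. Both the sum and the marker total hold genes that differed less between replicates than most. In replicate 1, c4, c6 and cfi were at 27.3, 8.76 and 19.7 CPM in control. With graphene oxide they were at 21.2, 12.5 and 22.5 CPM. Among the markers, rbp4 was at 479, 468 and 865 CPM in control and 344, 334 and 1035 CPM with graphene oxide. The share without these genes was not computed, so the direction of the share within pairs 1 and 2 may depend on them. The 10 members made outside liver summed to 82.2, 76.4 and 134 CPM in control and 98.4, 98.2 and 141 CPM with graphene oxide. Endothelial markers summed to 92, 89.5 and 230.3 CPM in control and 134, 135 and 257 CPM with graphene oxide, and macrophage markers to 21.2, 20.7 and 58.8 against 28.7, 27.8 and 78.9 CPM. All 9 endothelial and all 8 macrophage markers had counts. Their part in the levels of the members was not tested.

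**Figure D2:**
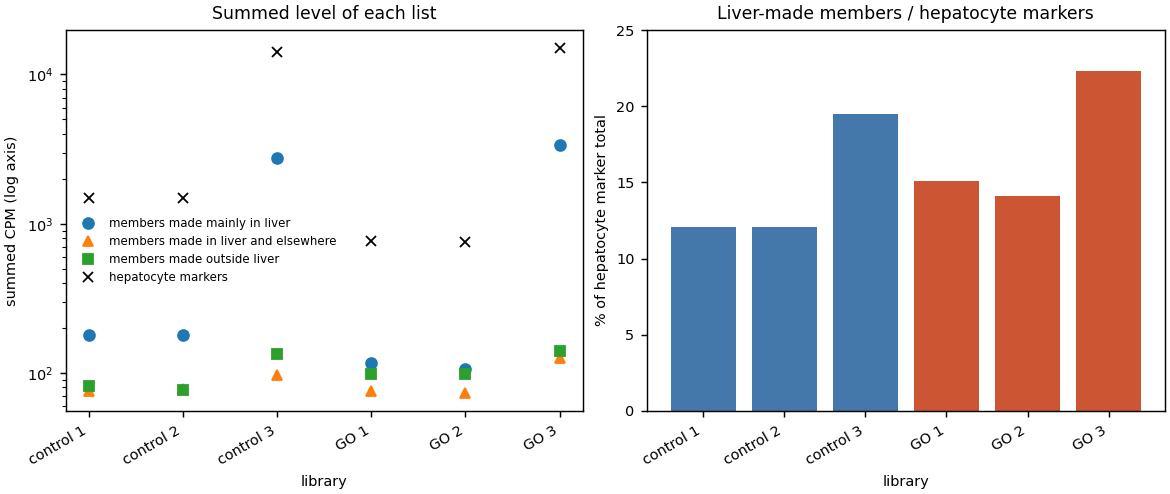
Left, summed CPM on a log axis for the members by source and for 27 hepatocyte markers in each of the 6 libraries (GO, graphene oxide). Right, the sum of the members made mainly in liver as a percentage of the hepatocyte marker total, which was 12.1% in control replicates 1 and 2, 14.1% to 15.1% in graphene oxide replicates 1 and 2 and 19.5% to 22.3% in replicate 3. The marker gene rbp4 weighs more in that total in replicates 1 and 2 than in replicate 3, as do c4, c6 and cfi in the sum of the members. The direction within pairs 1 and 2 may depend on these genes.

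Graphene oxide was first compared with control over all 6 libraries. No member passed the quasi-likelihood test of edgeR among the 47 members with a mean FPKM of at least 1, and none had an unadjusted p under 0.05. Over all 19313 genes tested 0.0% were called and 2.27% had an unadjusted p under 0.05. DESeq2 called 10 genes, 0 of them members. The spread within a group was wide. For c9 the control mean was 98.6 ± 144 CPM and the graphene oxide mean 84.4 ± 139 CPM, and for fgb these were 70.4 ± 105 and 100.3 ± 167 CPM (SD, n = 3 each). Within same-numbered pairs, 20 of the 47 members went in the same direction in all 3, against 37.7% of all genes tested, 9 of them lower and 11 higher with graphene oxide.

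Among replicates 1 and 2 alone, 13 of 19 tested complement members made mainly in liver fell with graphene oxide and none rose. Of all 24 complement members tested, 14 fell and 1 rose (c7a), where 24.9% of 19289 genes tested were called, 12% lower and 12.9% higher (2319 and 2493 genes). Without scaling of library totals the split over all genes was 1660 lower and 3293 higher, and that of complement members was the same. All but cfd of the 14 were members made mainly in liver. The median log2 fold change was -1.24 over the 19 liver-made members tested, against -0.00 over all genes. The minimum FPKM for testing was set over all 6 libraries, replicate 3 included. When it was set in replicates 1 and 2 instead, 7 of 14 complement members fell and 1 rose. Over all genes 2240 of 18543 then fell and 2423 rose. This fit had a dispersion, the fitted spread within a group, of 0.000716 across genes, against 0.166 over all 6 libraries. Its p-values thus rest on a spread that may be technical. The smallest p-values were those of c9, with a log2 fold change of -1.85 ± 0.18 (SE) and an adjusted p = 1.23e-20, and of c3a.1, with -1.69 ± 0.20 and 3.02e-14. Next were c5 (-1.83 ± 0.34, adjusted p = 2.72e-06), cfhl4 (-1.24 ± 0.25, 9.72e-06), cfh (-1.79 ± 0.41, 0.000194) and c3b.2 (-1.65 ± 0.40, 0.000394). The genes c3a.6, c3b.1, c8a, c8g, cfb and masp2 fell by 1.16 to 1.61 on the log2 scale, whereas c4 and cfd fell by 0.36 and 0.33. Not past the test were c3a.2, c3a.3, c6, c7b, c8b, cfhl2, cfi, cfp and masp1, with log2 fold changes from -0.93 for cfhl2 to 0.86 for c3a.2, both with few counts.

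Of 23 coagulation members tested in the same libraries 7 fell and 2 rose, or 30.4% and 8.70%. Over all genes 12% fell and 12.9% rose, so the share that rose was not above that of all genes. The fibrinogen chains fell together, fgg with a log2 fold change of -2.18 ± 0.25 (SE, adjusted p = 1.62e-15), fgb with -1.40 ± 0.21 (1.95e-09) and fga with -0.98 ± 0.16 (2.40e-08). Antithrombin (serpinc1, -1.59 ± 0.32, 1.83e-05), plasminogen (plg, -1.41 ± 0.33, 0.000322), prothrombin (f2, -0.93 ± 0.22, 0.00035) and f7i (-1.64 ± 0.58, 0.0237) fell as well. All 7 are made mainly in liver. The 10 other liver-made coagulation members tested did not pass. Their log2 fold changes ran from -1.13 ± 0.61 for serpind1 and -0.98 ± 0.48 for kng1 to 0.02 ± 0.30 for f10 and 1.58 ± 1.13 for f9b, and 12 of all 17 liver-made coagulation members tested were below 0. The 2 that rose are made outside liver, the tissue factor gene f3b with a log2 fold change of 1.05 ± 0.20 (adjusted p = 4.15e-06) and f13a1b with 0.43 ± 0.17 (0.0431). The second tissue factor gene f3a had 0.40 ± 0.17 and did not pass (adjusted p = 0.0735).

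By source, 20 of the 36 tested members made mainly in liver fell and none rose, with a median log2 fold change of -1.06. Of all genes tested 12% fell and 12.9% rose. Of 23 hepatocyte markers tested beside them 13 fell and 2 rose, with a median of -1.08, and their sum was 0.516-fold and 0.506-fold of control in pairs 1 and 2. Intestine markers had a median of -1.26, with 4 of 7 lower. Of 6 macrophage markers tested 2 rose (median 0.41). All 7 fibroblast markers tested rose (median 0.43), 4 of 9 endothelial markers rose (0.39) and all 8 muscle markers fell (-0.22). The part of any of these in the members' changes was not tested. With DESeq2 6 complement members (c3a.1, c3b.2, c5, c9, cfh and cfhl4) and 6 coagulation members (f2, f3b, fga, fgb, fgg and serpinc1) passed. Over all genes 2047 of 19289 did. Without control replicate 2, or without graphene oxide replicate 2, 9 complement members passed, where 3592 of 19281 and 3013 of 19285 genes did. The genes c3a.1, c5, c9, cfhl4, f2, f3b, fga, fgb, fgg and serpinc1 passed under every alternative in which they were tested. Of the 47 tested members 20 had a mean FPKM under 1 in replicates 1 and 2, and with that minimum applied there 8 of 14 complement members passed, 7 lower, and 7 of 13 coagulation members, 5 lower. Under the same minimum 4663 of 18543 genes passed, 2240 of them lower.

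**Figure D3:**
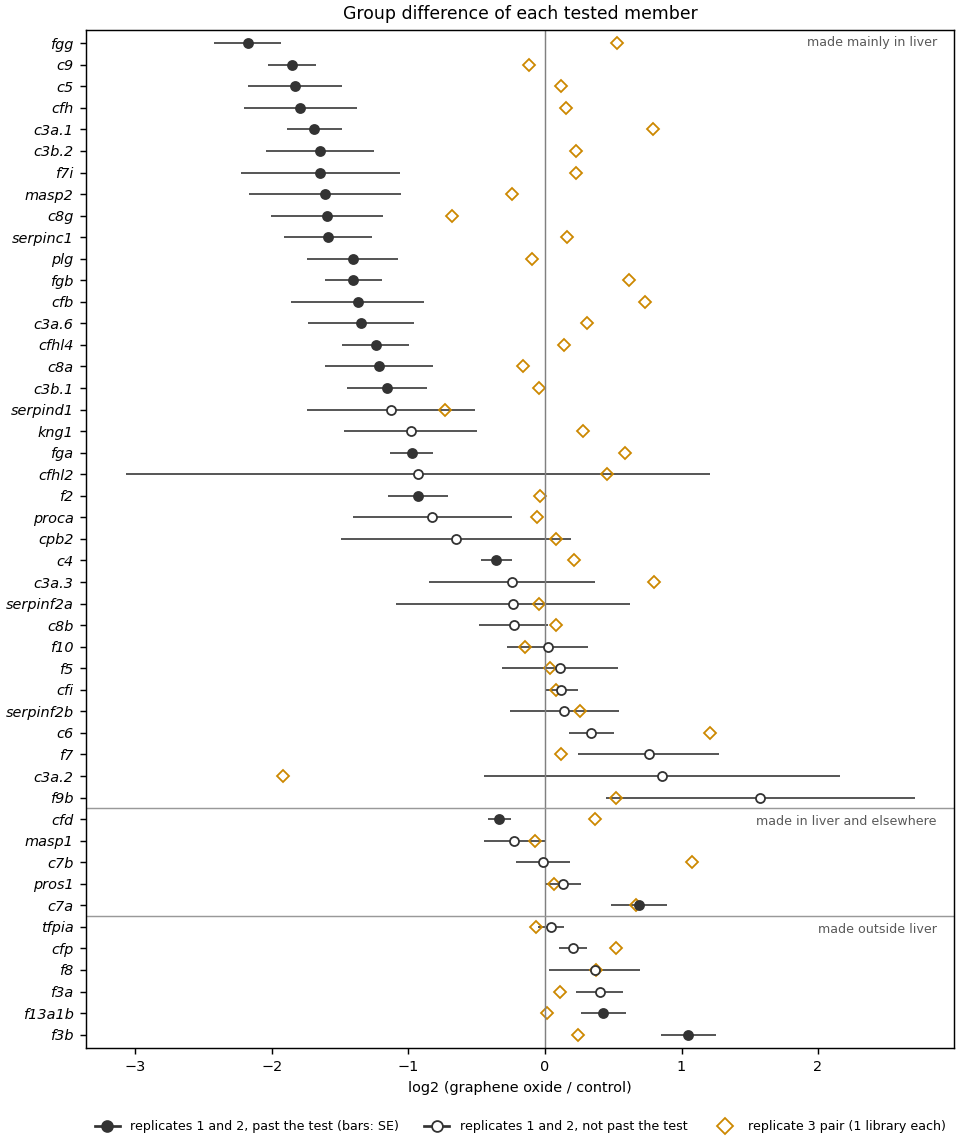
Log2 ratio of graphene oxide to control for the 47 tested members, ordered within source. Black circles are the edgeR estimate for replicates 1 and 2 with its SE, filled where the adjusted p was under 0.05, and diamonds the ratio in the replicate 3 pair (1 library each); filled circles among members made mainly in liver all lie below 0, while most diamonds there lie near or above 0.

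Other genes of the 2 systems were listed separately. Of 13 other complement genes tested in replicates 1 and 2, 3 fell and 1 rose. The third that fell beside the 2 vitronectin genes was c1qbp, named after its value was seen, with a log2 fold change of -0.16. The vitronectin genes vtna and vtnb, whose product blocks the attack complex, fell from 5.49 and 3.87 to 1.2 and 1.73 CPM and from 6.44 and 7.83 to 3.04 and 3.54 CPM. The leukocyte integrin gene itgb2, a subunit of the receptors for C3 fragments, rose from 1.69 and 2.13 to 4.14 and 3.38 CPM. Of 21 other coagulation genes tested 6 rose and 1 fell. In either direction 30.8% of the other complement and 33.3% of the other coagulation genes were called, against 24.9% of all genes. Of the other complement genes 23.1% fell and 7.69% rose. Of the other coagulation genes 4.76% fell and 28.6% rose. Over all genes 12% fell and 12.9% rose, and these 2 lists hold only 13 and 21 tested genes. The broad protease inhibitor gene a2ml fell from 24.9 and 23.8 to 9.13 and 9.20 CPM. The protease nexin gene serpine2 rose from 12.6 and 14.8 to 20.1 and 18.4 CPM. The protease-activated receptor gene f2rl1.2 rose from 2.53 and 1.42 to 7.36 and 7.23 CPM. The thrombin receptor gene f2r, with few counts, rose from 0.528 and 0.316 to 1.2 and 1.57 CPM. The integrin genes itgb3a and itgb3b, whose product is part of the fibrinogen receptor of thrombocytes, rose from 2.96 and 3.79 to 8.28 and 7.38 CPM and from 0.739 and 1.26 to 2.85 and 2.28 CPM. Of the 4 thrombocyte markers, itga2b and mpl were at 0.157 to 0.474 CPM in the same libraries. The marker gp1bb was at 1.79 and 2.53 CPM in control and 2.76 and 2.83 CPM with graphene oxide, and gp9 at 0.528 and 0.395 against 0.736 and 1.02 CPM. Neither of the 2 thrombocyte markers tested passed, and their part in the integrin values was not tested.

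In the replicate 3 pair the members made mainly in liver had ratios on both sides of 1. Their median log2 ratio was 0.13 there, against -0.87 in pair 1 and -0.87 in pair 2, for values with 0.5 CPM added. At least 1.5-fold higher with graphene oxide were 8 of the 47 tested members, c3a.1, c3a.3, c6, c7a, c7b, cfb, fga and fgb, where 2.87% of all genes were. At least 1.5-fold lower were c3a.2, c8g and serpind1, where 3.71% of all genes were. These are differences between 2 libraries and have no replicate check. In this pair the hepatocyte marker sum was 1.07-fold that of control.

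The difference between the effect in the replicate 3 pair and that in replicates 1 and 2 was put to an interaction term. Replicate 3 has 1 library in each group, so the spread came from replicates 1 and 2 alone, giving a dispersion of 0.000716 across genes, whereas the fit of 6 libraries by group had 0.166. The calls therefore set 2 single libraries against a spread that may be technical, and do not show that the effect differs between fish. The term was past the threshold for 23 of 47 members, with 21 more positive in replicate 3 and 2 more negative, where 6.63% and 7.59% of all genes were. The 2 negative ones were c3a.2 and f3b. On the log2 scale the value was 2.70 for fgg and 2.48 for c3a.1. For c9, below control with graphene oxide in each same-numbered pair, it was 1.74. With DESeq2 12 of 47 members passed, all more positive in replicate 3. Over all genes 761 of 19313 passed, 373 more positive and 388 more negative. The value of c3a.2 rests on 1 to 4 counts in each of replicates 1 and 2.

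Shares of the C3 paralogs varied between libraries, and no test was made between paralogs. In replicates 1 and 2 they rest on 40 to 130 counts of c3a.1 and at most 59.55 of any other. By TPM, c3a.1 made up 56.2%, 50.9% and 52.1% of the listed C3 genes together in control replicates 1, 2 and 3. With graphene oxide it made up 47.1%, 42.6% and 62.3%. The share of c3a.2 was 5.7% in control replicate 3 and 1.02% in graphene oxide replicate 3, where its expected counts were 351 and 86.0. Its neighbour c3a.3 went from 707 to 1139 expected counts in the same pair, and the unrounded counts of both were fractional. The listed C3 genes together were at 120 and 179 TPM in the replicate 3 pair and at 1.83 to 5.21 TPM in the other 4 libraries. For fibrinogen, which needs equal numbers of its 3 chains, fga, fgb and fgg held 27.5%, 35.8% and 36.7% of the summed TPM in control replicate 3 and 27.7%, 36.8% and 35.5% in graphene oxide replicate 3. In replicates 1 and 2 the fgg share was 35.7% and 31.5% in control and 25.9% and 14.3% with graphene oxide, from 95, 109, 30 and 18 counts.

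**Figure D4:**
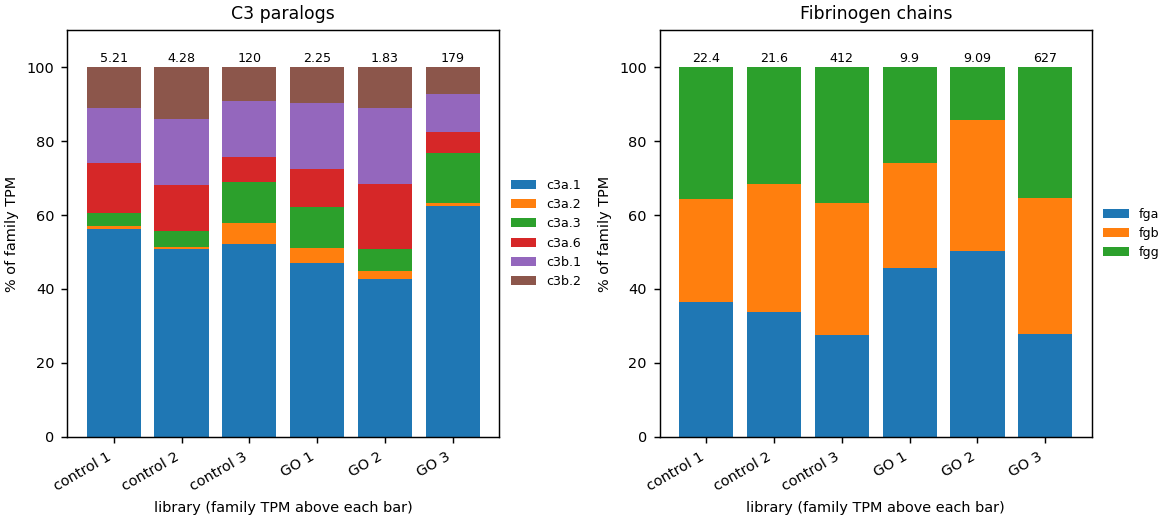
Composition of C3 (left, 6 paralogs) and fibrinogen (right, 3 chains) transcripts in each library as a percentage of the family's TPM, with the family TPM printed above each bar (GO, graphene oxide). The fibrinogen chains of the replicate 3 libraries have nearly the same shares in both groups, and fgg is the smallest share in graphene oxide replicates 1 and 2, from 30 and 18 counts.

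Several members stood on more than 1 row with the same gene ID, and the division of counts between those rows differed by replicate as well. For cfd, row 3 of 3 held 10.1% (7.63% to 13.6%), 9.12% (7.17% to 11.7%) and 98.4% (96.8% to 99.2%) of its expected counts in control replicates 1, 2 and 3 and 9.56% (7.12% to 12.8%), 8.15% (5.98% to 11.1%) and 95.9% (94% to 97.2%) with graphene oxide (95% Wilson intervals). The summed level of cfd stayed between 35.6 and 53.3 CPM while row 3 held the smallest share of its 3 rows in replicates 1 and 2 and the largest in replicate 3. Rows 1 and 2 of cfd held equal counts in each library. For cfh, row 1 of 2 held 5% (0.772% to 21%), 2.56% (0.412% to 12.1%) and 56.1% (53.6% to 58.6%) in control. It held 0% (0% to 32.4%), 0% (0% to 24.2%) and 50.9% (48.4% to 53.4%) with graphene oxide, where replicates 1 and 2 had only 8 and 12 counts of the gene. For c6, row 1 of 2 held 58.6%, 53.2% and 84.1% in control and 50%, 52.6% and 67.5% with graphene oxide. Within same-numbered pairs the shares of these rows of cfd, cfh and c6 were lower with graphene oxide in all 3 pairs, with overlapping intervals in replicates 1 and 2. The other rows of these genes went the other way, so the shared direction depends on the rows shown. Not all members had 1 direction. For cfhl4, row 2 of 2 held 80.7%, 72.6% and 81.1% in control and 75%, 78.35% and 92.8% with graphene oxide. In replicate 3 the intervals of cfd overlapped and those of cfh and c6 did not. Of 5 members with unequal rows and at least 20 counts in every library, cfd alone had a row share in both replicate 3 libraries at least 25 percentage points outside the range of the others, as had 17.0% of 3087 such gene IDs. No member of the 5 had a gap of that size between the groups in replicates 1 and 2, against 0.518% of gene IDs. The Wilson intervals cover counting error only and leave out differences between libraries. Duplicate reads of a molecule could not be recognised, so the counting error itself may be larger than these intervals show.

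**Figure D5:**
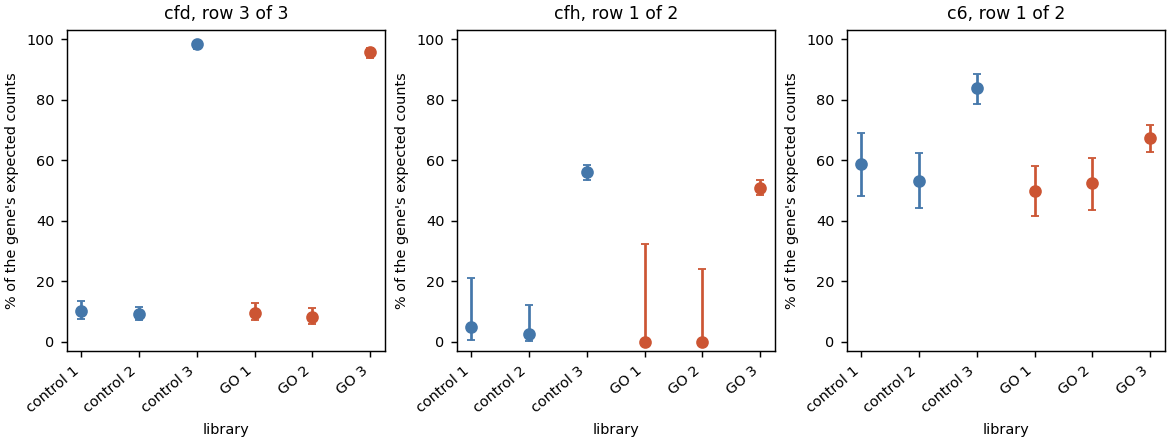
Share of a gene's expected counts on 1 of its rows, in percent with 95% Wilson intervals, for cfd, cfh and c6 in the 6 libraries (GO, graphene oxide; blue control, red graphene oxide). The cfd share is 8.15% to 10.1% in replicates 1 and 2 of both groups and 95.9% to 98.4% in replicate 3.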

How the data were processed

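Each of the 6 libraries had its own table of expression by gene ID and symbol. The deposited counts are expected counts, some of them fractional. TPM and FPKM, normalized for length and depth, stand beside them per the file headers. Bowtie2 2.3.2 and the GRCz11 assembly are named, per the submitters' processing notes. How the counts were estimated, and whether by strand, is not given in the sources used here, so values of overlapping and antisense genes are uncertain. No coordinates are given, since the reference table follows another assembly.

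Rows were summed by gene ID, and 21 members stood on 2 or 3 rows. Counts were rounded and tested with edgeR 4.0.16 (quasi-likelihood, TMM, R 4.3.3) over genes with a mean FPKM of at least 1 in the 6 libraries, which kept 47 of 55 members. The fits were the group over all 6 libraries, the group over replicates 1 and 2, and the interaction of group with replicate 3, in which the lone libraries are assumed to vary like the others. DESeq2 1.42.0 was an alternative. Adjusted p-values are Benjamini-Hochberg values over all genes tested, two-sided, with a threshold of 0.05. Fitted fold changes carry the SE implied by the test. List totals are unscaled CPM. All members are described, with values for those of at least 1 CPM, and the other pathway genes named are the 10 with the smallest p-values past the threshold in replicates 1 and 2, of which 1 is not reported here.

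Members, gene lists, sources and fits were chosen with earlier results of these data known. Same-numbered libraries deviated together from their group means (correlation across genes 0.76, 0.76 and 0.87 for replicates 1, 2 and 3, limit 0.1), so the numbers were taken to pair them. Crossing the numbers 1 and 2 gave 0.75 and 0.76, so the check sets replicate 3 apart but cannot tell 1 from 2. The fits were also run on simulated data, with changes placed only in genes above a minimum mean count. The outcome is not reported here, and changes in genes with a low mean count were not covered.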

Additional observations from a re-analysis of the deposited data

Results flagged for a closer look

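The interaction test of edgeR was passed by 23 of the 47 members tested and by 14.2% of all 19313 genes tested. It sets the log2 ratio of graphene oxide to control in the replicate 3 pair against that in replicates 1 and 2. Each value here is the difference between them on the log2 scale, positive where the ratio was higher in replicate 3. Replicate 3 has 1 library in each group, the spread comes from replicates 1 and 2 alone and may be technical, so these are differences of 2 single libraries from the rest. The hepatocyte markers had a median of 1.22 in the same test. For the C3 genes it was 2.48 for c3a.1, 1.64 for c3a.6, 1.12 for c3b.1, 1.88 for c3b.2 and -2.78 for c3a.2. For the terminal components it was 1.96 for c5, 0.87 for c6, 1.09 for c7b, 1.05 for c8a and 1.74 for c9. For the alternative pathway and its regulators it was 2.11 for cfb, 0.70 for cfd, 1.95 for cfh and 1.37 for cfhl4. For fibrinogen it was 1.56 for fga, 2.02 for fgb and 2.70 for fgg. For other coagulation genes it was 0.89 for f2, 1.88 for f7i, 1.75 for serpinc1, 1.32 for plg, 1.25 for kng1 and -0.81 for f3b. The value of cfd sets different rows of that gene against each other. Row 3 held 95.9% to 98.4% of cfd counts in replicate 3 and 8.15% to 10.1% in replicates 1 and 2.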

How the results depend on the processing

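Over all 6 libraries the count of genes past the threshold was 0 under the alternatives tried other than DESeq2, which gave 10, and the count of members was 0 under all of them, DESeq2 included. For replicates 1 and 2, DESeq2 gave 2047 genes against 4812, 6 complement members against 15 and 6 coagulation members against 9. Leaving out 1 library at a time gave 3013 to 3855 genes, 9 to 13 complement members and 6 to 9 coagulation members. A filter on FPKM in replicates 1 and 2, chosen after seeing the data, gave 8 complement members, of fewer tested. With only the highest row of each gene ID, replicates 1 and 2 gave 4198 genes, 12 complement members and 8 coagulation members. For the interaction, DESeq2 gave 761 genes against 2746 and 12 members against 23, and leaving out a library gave 1729 to 2594 genes and 18 to 20 members. With only the highest row of each gene ID, the interaction calls of c3a.2, c6, c7b, cfd, cfh, f3b and kng1 were lost. The cause of these differences was not tested. Without scaling of library totals 3293 genes were higher and 1660 lower in replicates 1 and 2, against 2493 and 2319, while the members were 1 higher and 14 lower in complement and 3 higher and 7 lower in coagulation. No member's called direction reversed under any alternative tried.

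With the replicate block the counts were 0 genes over all 6 libraries, where 8 of 47 members and 14.5% of genes had an unadjusted p under 0.05 and the smallest adjusted p of a member was 0.261. The block gave 4893 genes, 15 complement and 9 coagulation members in replicates 1 and 2, and 2884 genes and 24 members for the interaction, and it changed no other call by over 1.5 times. The interaction could not be fitted without a replicate 3 library. Low counts limit replicates 1 and 2, where 20 tested members had a mean FPKM under 1.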
